A study of Saccharomyces cerevisiae with 14 samples.

Results

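The mitochondrial genome of budding yeast was followed on comparative genomic hybridization (CGH) arrays through every probe whose position lies on chrM. There were 363 such probes among 59541 probes on the array, against 59156 on the nuclear chromosomes. The arrays compared TAQed yeast strains with the control strain WT14. The TAQed strains were derived from WT14 cells carrying the gene of TaqI, a heat-tolerant restriction enzyme that cuts DNA, which was expressed under Cu2+ and activated for 30 min at 42 °C. WT14 is a fused diploid of an S288C-derived and an SK1-derived parent, both MATa, so all strains share this hybrid background, and the protocol text repeats the activation step for WT14 although the methods treat it as the unactivated parent. Cells were grown in rich medium (YPD) for 24 h at 30 °C, and 100 ng of DNA was labeled. Each of the 13 TAQed strains, numbered between 1 and 119 in the labels, was one clone picked for its small colonies and altered morphology, and had 1 array with its DNA in Cy5 and WT14 DNA in Cy3. On the WT14 array, WT14 DNA was in both dyes. No strain had a replicate array and no dye was swapped, so dye bias and differences between labelings cannot be told apart from differences between strains.

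Yeast mitochondrial DNA is a small, AT-rich genome present in many copies per cell, and it is not needed for growth on fermentable sugar such as the glucose of YPD. Cells that lose part or all of it cannot respire and form small colonies, called petites. In petites of the rho- kind a short piece of the genome, often holding a replication origin, is kept and repeated many times over, whereas rho0 cells hold none. The genome encodes a few subunits of the respiratory chain and the ATP synthase, together with the ribosomal and transfer RNAs that translate them. The RefSeq table of this organism lists 46 mitochondrial genes, of which 19 code for proteins, 24 for tRNAs, 2 for rRNAs and 1 for another noncoding RNA. Among them are COX1, COX2 and COX3 (subunits of cytochrome c oxidase), COB (cytochrome b), ATP6, ATP8 and OLI1 (subunits of the ATP synthase) and VAR1 (a mitochondrial ribosomal protein). That table is on another genome build than the sacCer2 positions of the probes, so no probe was assigned to a gene, and no probe sequence was used here.

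The probes ran from position 49 to position 85778 of chrM, with a median spacing of 225 bases between starts (194 on the nuclear chromosomes) and a largest gap of 611 bases. Most were 60 bases long, the shortest 45, and 101 of the 363 overlapped another probe and so shared part of their target. The value given for each probe is the log2 ratio of Cy5 over Cy3 processed signal after each array was centered on the median of all its probes. A value of 0 stands for about the same share of mitochondrial DNA per average nuclear DNA as in WT14 DNA. WT14 against itself gave a median of 0.09, so 0 is not exactly the point of equal share. A gain or loss of all nuclear DNA together would move the value too. More copies and a closer match of a strain's sequence to the probe cannot be told apart.

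Probe quality was read from the scanner's flag for signals well above background. On 12 of the arrays, those other than strains 81 and 84, Cy5 was well above background at 325 to 337 mitochondrial probes, and on the 13 arrays other than strain 81, Cy3 was so at 327 to 333. A fixed set of 26 probes was not well above background in Cy3 on any array nor in Cy5 on any array other than that of strain 84, and 7 of these lay among the 24 probes from position 81000 on, against none among the 85 probes between 10000 and 29000. A further set of 323 probes passed on every array in both dyes, leaving out strain 81 and the Cy5 of strain 84. The array of strain 81 was weak over the whole genome. Only 84.8% of its nuclear probes were well above background in Cy5 and 81.1% in Cy3, against over 99.8% of nuclear probes in either dye on each of the other arrays. Of its mitochondrial probes 285 passed in Cy5 and 270 in Cy3, and 40 of its 57 probes lost to outlier flags were mitochondrial. Its values rest on 323 of the 363 probes.

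The mitochondrial signal of strain 84 was near background at most probes. In the other 12 TAQed strains the mitochondrial median was above that of WT14 in 10, and below it in strains 101 and 117. The median log2 ratio over the probes was -8.56 in strain 84 (quartiles -9.73 and -5.82), -0.60 in strain 101 (-0.73 and -0.43) and -0.27 in strain 117 (-0.46 and -0.03). Strain 97 had a median of 0.11, strain 83 of 0.16 and strain 106 of 0.27. Strain 107 had 0.40, strain 119 had 0.42, strain 1 had 0.44 and strain 81 had 0.52. The highest medians were 0.71 in strain 76, 0.72 in strain 73 and 0.80 in strain 113, against 0.09 on the WT14 array (quartiles -0.13 and 0.27). On a linear scale these top medians corresponded to 1.64-fold, 1.65-fold and 1.75-fold the mitochondrial share of WT14 DNA, and that of strain 101 to 0.66-fold. The WT14 array itself stood at 1.06-fold, and these values were not corrected for it.

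**Figure D1:**
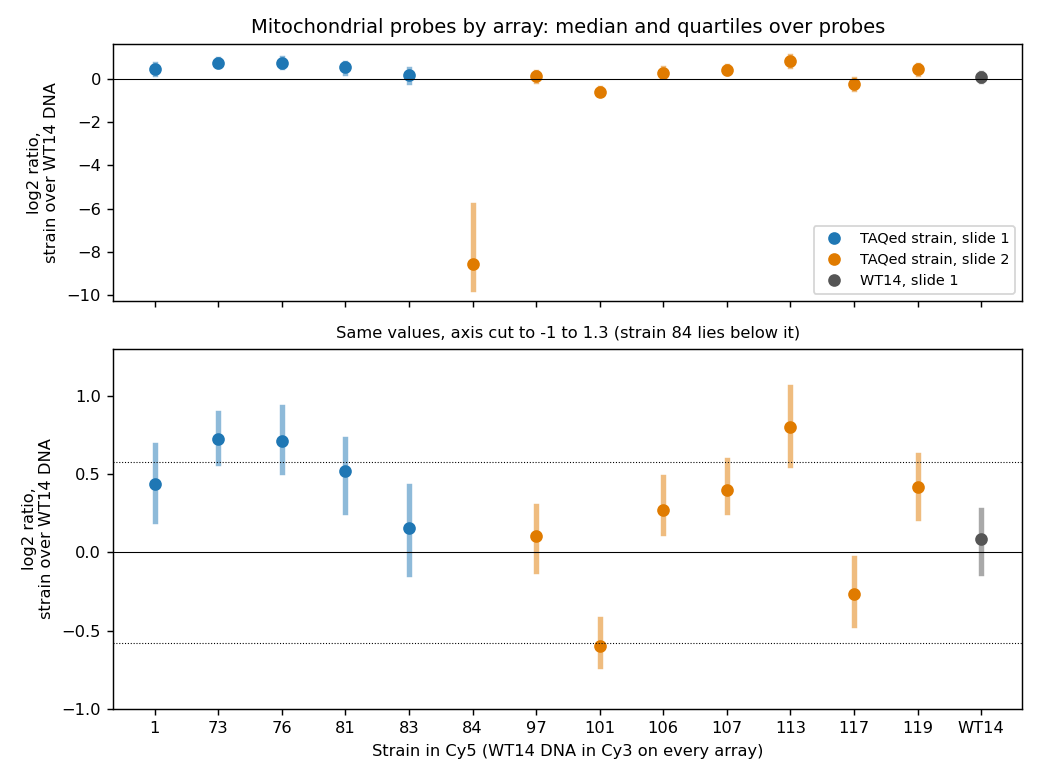
Median (points) and quartiles (bars) of the log2 ratio of strain over WT14 DNA across the mitochondrial probes, for the 13 TAQed strains and, at the right, WT14; the lower panel repeats the values on a narrow axis with dotted lines at 0.58 in either direction. Strain 84 stands at -8.56, strains 113, 73 and 76 lie above the upper dotted line, and strain 101 lies at the lower one.

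Much of the spread within an array came from the probes, so neighbors in this order were also compared probe by probe. Subtracting the WT14 array at each probe left a median of 0.74 in strain 113 with quartiles of 0.64 and 0.82, and 361 of 363 probes were higher than on the WT14 array. In strain 73 the median difference was 0.64 with 361 of 363 probes higher, and in strain 76 it was 0.65 with 359 of 362 higher. In strain 101 the median difference was -0.71 and 22 of 363 probes were higher, and in strain 117 it was -0.35 and 35 of 363 were higher. For strain 97 the quartiles of the difference, -0.04 and 0.09, spanned 0. The difference of strain 83 from WT14 was small, with a median of 0.10 and quartiles of 0.00 and 0.18.

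Of the 13 pairs of neighbors in the order of the medians, 6 had probe differences whose quartiles cleared 0. These were strain 101 over 84, 117 over 101, WT14 over 117, 107 over 106, 76 over 81 and 113 over 73. In 76 over 81 and in 113 over 73 the lower quartile was only 0.006. In the other pairs the quartiles spanned 0. These hold for neighbors only, since strain 106 minus WT14 had a median of 0.21 with quartiles of 0.13 and 0.27 and 344 of 363 probes higher. Probes of one array share one labeling, so these quartiles describe the array and not the error of a repeated culture. They do not decide whether strains differ.

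The mitochondrial medians were also set beside those of the 16 nuclear chromosomes on the same array. In 9 of the 12 strains other than 84 the mitochondrial median was above that of every nuclear chromosome, as it was on the WT14 array, where the nuclear medians lay between -0.01 and 0.03. In strain 113 the nuclear medians reached 0.10, and in strain 76 they reached 0.44 on chromosome VIII. In strain 73 chromosome XII stood at 0.68, close to the mitochondrial 0.72. The lowest nuclear chromosome of strain 84 had a median of -0.09, against -8.56 for its mitochondrial DNA.

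Probes past 0.58 in size, a change of 1.5-fold, were counted on each array and read against all probes of that array. In strain 84, 346 of the mitochondrial probes passed, 341 of them lower, against 6.29% of all probes. In strain 73 all 269 passing probes were higher (74.1%, against 7.33% of all probes), in strain 113 all 268 were higher (73.8%, against 7.21%), and in strain 76 all 236 were higher (65.2%, against 3.15%). In strain 101 all 192 passing probes were lower (52.9%, against 9.4%). These 5 strains had most of their mitochondrial probes past the threshold in a single direction, apart from 5 higher probes in strain 84.

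In strain 81, 147 mitochondrial probes passed (45.5%, against 7.56% of all probes), and in strain 1, 140 passed (38.8%, against 1.04%). In strain 119, 114 passed (31.4%, against 5.4%), and in strain 107, 101 passed (27.8%, against 5.52%). Fewer passed in strain 83 with 66 (18.2%, against 0.931%), strain 106 with 65 (17.9%, against 8.85%) and strain 117 with 53 (14.6%, against 8.43%). Strain 97 had 20 (5.51%, against 0.549%) and the WT14 array had 29 (7.99%, against 0.599%). Mitochondrial probes of WT14 against itself thus passed more often than all probes did, and the share in strain 97 was below that of WT14.

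A test of the TAQed strains as a group against WT14 is limited by the single WT14 array. The mean of the medians was -0.38 over the 13 TAQed strains and 0.09 on the WT14 array, a difference of -0.46, and the two-sided exact permutation test gave p = 0.857 where the smallest p possible is 0.0714. Without strain 84 the difference changed sign to 0.22 (exact permutation p = 0.538), with 10 of 12 strains higher than WT14. On slide 1, which held the WT14 array, all 5 TAQed strains were higher and the difference was 0.42 (exact permutation p = 0.167, the smallest possible). TAQed strains on slide 2 had a mean of -0.93 (n = 8) and those on slide 1 a mean of 0.51 (n = 5), and this difference of -1.44 had an exact permutation p of 0.412, and of 0.167 without strain 84, when it was -0.35. Across all probes limma called 0 of 59472 at an adjusted p under 0.05 for TAQed against WT14 (0% of all probes), and 511 had an unadjusted p under 0.05, of which 1 was mitochondrial. No other tool was run for this comparison.

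The level of each dye alone was taken as the median mitochondrial signal over the median nuclear signal of the same array. In Cy5, the strains' own DNA, this was 1.62-fold to 3.39-fold in the 12 TAQed strains other than 84, and 2.14-fold in WT14. Strain 113 had the highest value, 1.58-fold that of the WT14 array, followed by strain 73 with 1.48-fold and strain 76 with 1.39-fold. Strain 101 had 0.756-fold and strain 117 had 0.837-fold the WT14 level. By this measure 8 of the 12 strains were above WT14 and 4 were below. Strains 81 and 83 stood above WT14 by their ratio but below it by Cy5 alone, with 0.929-fold and 0.943-fold its level.

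In Cy3, which held WT14 DNA on every array, the log2 level averaged 1.01 ± 0.14 (SD, n = 12 arrays, without strains 81 and 84), so the same DNA gave differing levels from array to array. The SD of the Cy5 log2 level over the 11 TAQed strains among the same arrays was 0.34. Cy3 was not steady where Cy5 was low. It was highest on the array of strain 84, at a log2 level of 1.55, and next highest on that of strain 101, at 1.28, against 0.98 on the WT14 array. At the 323 probes of good quality the Cy3 level of the strain 84 array was 1.53-fold the median of the other arrays (median over probes), and 217 of the 363 probes were brighter in Cy3 there than on every other array. Part of a low ratio on these arrays therefore lay in Cy3. On slide 1 Cy3 was lower than on the WT14 array for strains 1, 76, 81 and 83, at 0.894-fold, 0.899-fold, 0.739-fold and 0.919-fold its level. For strain 73 it was 1.03-fold. On slide 2 Cy3 was below the WT14 array only for strain 113, at 0.961-fold, and strain 107, at 0.989-fold. Part of a high ratio of strains 1 and 76 likewise lay in Cy3. For strains 81 and 83, whose Cy5 level was below that of WT14, these levels placed none of the rise over WT14 in Cy5. Beyond these levels, the part of the Cy3 shifts in the ratios was not tested.

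**Figure D2:**
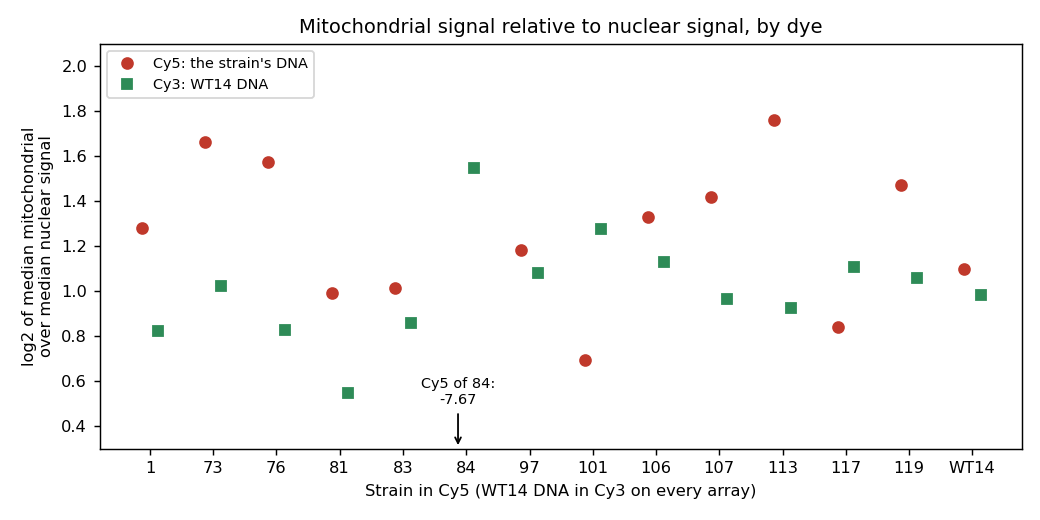
Log2 of the median mitochondrial over the median nuclear signal of each array, with Cy5 (the strain's DNA) as circles and Cy3 (WT14 DNA) as squares, for the TAQed strains and, at the right, WT14. Cy5 of strain 84 lies below the axis at -7.67, while its Cy3 level of 1.55 is the highest of all arrays.

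In strain 84 the Cy5 signal was well above background at 41 of the 363 mitochondrial probes (11.3%), while Cy3 on the same array passed at 333 and 99.9% of its nuclear probes passed in Cy5. The median mitochondrial signal in Cy5 was 5.04 intensity units, under the 23.7 units of the dimmest signal well above background on that array. At 292 probes only Cy3 passed, so their ratio is an upper limit. With Cy5 set to those 23.7 units, or to its own value if higher, the median limit was -7.22, which is at least 149-fold lower than WT14 DNA on the same array. Set against the WT14 array in Cy5 alone, the median mitochondrial level of strain 84 was at least 93.2-fold lower, and against strain 101, the lowest of the other strains, at least 70.4-fold lower.

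The limits were then taken in bins of 5 kb, over the probes where only Cy3 passed. Their median ran between 13.1-fold lower in the short bin from 85001 on (5 probes) and 224-fold lower in the bin from 5001 to 10000 (15 probes). In the first bin it was 84.4-fold lower at 8 probes, and in the bin from 50001 to 55000 it was 40.2-fold at 12. In the bin from 80001 to 85000, where only 14 of 22 probes passed in Cy3, it was 33.9-fold at 10. Probes that passed in Cy5 were left out of these limits, which were 11 of 23, 3 of 17 and 4 of 22 in these bins. Over all its probes the first bin, which holds the bright stretch described below, had a median log2 ratio of -3.27. In the bin from 15001 to 20000 all 25 probes passed in Cy3 and none in Cy5, with a median limit of 188-fold lower. These limits depend on the brightness of WT14 DNA at each probe and give no order of the bins in strain 84.

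In contrast, a stretch of 316 bases at chrM:4239-4554 was bright in strain 84. It held 5 probes, all well above background in Cy5, within the longest run of such probes on this array (7 probes, from 3483 to 4554). The probe at 4239-4298 had a log2 ratio of 4.43 in strain 84, against -0.81 to 0.73 on the other 13 arrays and -0.10 on the WT14 array. Its Cy5 level was 8.30-fold the nuclear median in strain 84, against 0.843-fold to 2.64-fold on the other arrays and 1.32-fold in WT14. The probe at 4243-4302 had a ratio of 4.17 and a Cy5 level of 14.3-fold in strain 84, against 0.01 and 2.63-fold in WT14. Both were brighter in the Cy5 of strain 84 than on any other array.

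The next probe, at 4268-4327, overlaps these and had the highest Cy5 level of all mitochondrial probes of strain 84 (19.5-fold), within the 11.6-fold to 25.6-fold of the other arrays. Its ratio of 0.75 was close to the 0.79 that was the median of the other arrays. The probe at 4283-4342 fell short, with a ratio of -2.54 and 3.11-fold in strain 84, against 0.43 and 11.4-fold in WT14. The probe at 4495-4554 had a ratio of 3.81 and 1.39-fold, against -0.10 and 0.142-fold in WT14. The first 4 probes of the stretch start within 44 bases of each other and share part of their targets.

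WT14 DNA in Cy3 was dimmer at part of this stretch on the strain 84 array. At 4239-4298 the Cy3 level was 0.376-fold, against 0.902-fold to 1.69-fold on the other arrays, and at 4243-4302 it was 0.775-fold, against 2.09-fold to 3.11-fold. These were the only 2 mitochondrial probes that passed in Cy3 and were dimmer there than on every other array. The ratio at these probes is therefore larger than the rise in Cy5 alone, which was 5.68-fold and 4.74-fold over the median of the other arrays. At 4495-4554 the Cy5 rise was 8.72-fold.

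On either side the signal dropped. The probe at 3686-3745 had a ratio of -3.35 and that at 3483-3542 of -5.22, both well above background in Cy5, and the probe at 4743-4802 had -3.27 and was not well above background. At 4905-4964 the ratio was -6.12. On other arrays the ratio at 4239-4298 was 0.68 in strain 73, 0.73 in strain 113 and -0.81 in strain 101, against -0.10 in WT14. In strain 117 all 5 probes of the stretch lay at 0.06 to 0.33, above the median of -0.27 over its other mitochondrial probes. Part of this was shared with WT14, which had 0.39 at 4268 and 0.43 at 4283, where strain 117 had 0.33 and 0.17. At 4239, 4243 and 4495 strain 117 had 0.07, 0.06 and 0.18, against -0.10, 0.01 and -0.10 in WT14.

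**Figure D3:**
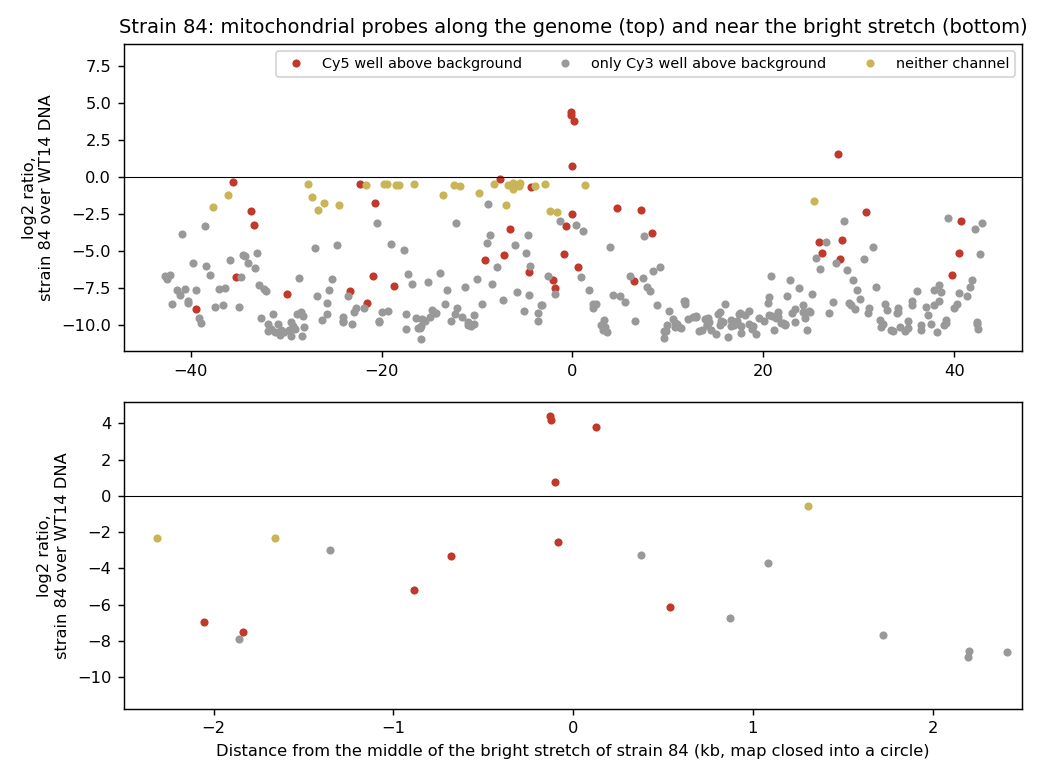
Log2 ratio of strain 84 over WT14 DNA at each mitochondrial probe against its distance in kb from the middle of the bright stretch, over the whole map (top) and within 2.5 kb (bottom), colored by which dyes were well above background. Of the 5 probes above 0, 4 lie in the stretch, at 0.75 to 4.43, and most of the rest lie below -5 or have signal in neither dye.

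Outside the stretch, single probes also kept signal in strain 84. The 41 probes well above background formed 28 runs of neighbors, of which 22 were single probes. Their ratios were above 0 at 5 probes, between -1 and 0 at 4, between -4 and -1 at 11 and at or below -4 at 21, and the median was -4.28. At 9 probes the Cy5 level was over 50% of the median of the other arrays, and 5 of these were outside the stretch.

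The probe at 32189-32248 was the only other one above 0, with a ratio of 1.56 in strain 84, against 0.08 in WT14. Its Cy5 level of 8.54-fold was above the 2.54-fold to 8.06-fold of the other arrays. The probe at 67927-67976 had a ratio of -0.51 and a level of 7.50-fold, and that at 49-108 had -0.66 and 4.60-fold. Those at 54592-54651 and 82583-82642 had -0.32 and -0.14. At these last 4 probes the Cy5 level of strain 84 lay at 61.0% to 76.0% of the median of the other arrays. The nearest neighbors that passed in Cy3 were low on both sides of each of the 5 probes. At 32393-32452, for one, the ratio was -5.57. Yeast mitochondrial DNA holds several near-identical origin sequences and many repeated GC-rich clusters, and whether the bright single probes share sequence with the stretch was not tested.

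Along the map the other arrays shared one profile. In bins of 5 kb the lowest and the highest bin of an array differed by 0.28 to 0.68 over the 12 TAQed strains other than 84, and by 0.43 on the WT14 array. The bins from 15001 to 20000 and from 40001 to 45000 were high on most arrays and those from 45001 to 55000 and beyond 80001 were low. In strain 113, for example, the bin from 40001 to 45000 had 1.01 and that from 45001 to 50000 had 0.60, against 0.18 and -0.15 in WT14. Over the 323 probes of good quality the Pearson correlation with the WT14 profile was 0.81 to 0.95 in the 11 strains other than 81 and 84, and 0.39 in strain 81. These arrays all hold the same WT14 DNA in Cy3 and the same probes.

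**Figure D4:**
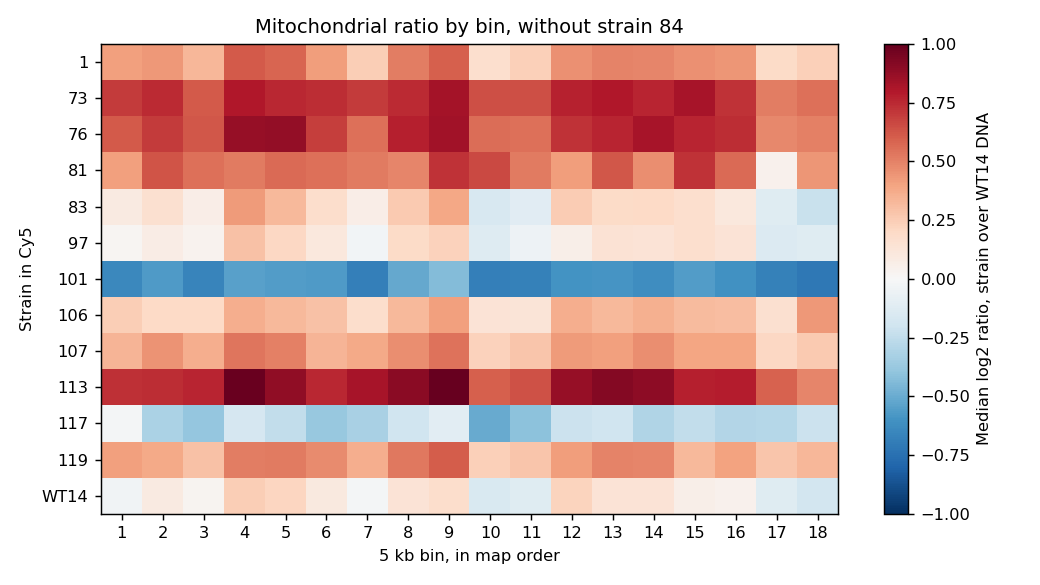
Median log2 ratio of strain over WT14 DNA in each 5 kb bin (columns, in map order, the last one short) for the 12 TAQed strains other than 84 and, in the bottom row, WT14, in color from -1 to 1. Rows differ in level, and bins 10 and 11 are paler or bluer than their neighbors in most rows, WT14 included.

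The probes with extreme ratios carried this shared profile. The 5 with the highest median over the TAQed strains lay at 7523-7582 (median 1.16), 16420-16479 (1.08), 13943-14002 (1.02), 46756-46815 (0.99) and 20645-20704 (0.97), and on the WT14 array they had 0.97, 0.89, 0.93, 0.68 and 0.80. All were well above background in Cy5 on the 13 arrays other than strain 84. The 5 with the lowest median, from -0.83 at 83174-83233 to -0.43 at 83391-83450, were not well above background in either dye on any array. The extreme probes of the TAQed strains were thus extreme, or dim, on the WT14 array as well.

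To see what was particular to an array, the median of each probe over the other arrays, without strain 84, was subtracted, and each array was set to a median of 0. What was left had an SD over probes of 0.09 to 0.16 in the TAQed strains other than 81 and 84, and of 0.10 on the WT14 array, where the SD before was 0.22 to 0.36 in these strains and 0.26 in WT14. Strain 81 kept an SD of 0.32. Dividing these profiles into segments of at least 10 probes gave 1 segment on 11 arrays, WT14 included. Strain 84 had 7 segments, strain 117 had 4 and strain 106 had 2. This subtraction was chosen after the data were seen. The planned segmentation, of the ratios without subtraction, split neither strain 117 nor strain 106, with 1 segment each. It gave 5 segments in strain 84 and 2 each in strains 73, 76, 83, 107, 113 and 119. With WT14 subtracted at each probe, strain 117 had 4 segments and strains 106 and 101 had 3 each.

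Strain 117, whose mitochondrial DNA was low as a whole, had more of it across the ends of the map, which adjoin on the circular map. The segment from 49 to 8321 had a median of 0.21 (29 probes) and that from 79216 to 85778 a median of 0.20 (23 probes). The segment from 8651 to 28564 lay at -0.07 and that from 28515 to 79274 at 0.01. Inside the joined stretch 48 of 52 probes were above 0 in strain 117, against 16 of 52 on the WT14 array. In the TAQed strains other than 84 and 117 the count ran from 13 of 52 in strain 76 to 34 of 52 in strain 106. The stretch was drawn on strain 117 itself, so a high count there was built in. Single probes reached 0.51 at 82284, 0.42 at 2317 and 0.60 at 4495 in strain 117. The probe at 4495 was dim, with a Cy5 level of 0.100-fold the nuclear median in strain 117. In the ratio itself the first 5 kb bin had -0.02 in strain 117 and -0.04 in WT14, while the bin from 45001 to 50000 had -0.50 in strain 117 and -0.15 in WT14. With WT14 subtracted at each probe, the segments of strain 117 had -0.06 from 49 to 8041 (35 probes) and -0.0016 from 81967 to 85778 (20 probes), against -0.48 and -0.34 in both segments between them. The deficit against WT14 was not small in every bin there, since the bin from 80001 to 85000 had -0.29 in strain 117 and -0.12 in WT14. The raised stretch contains the one that was bright in strain 84.

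Strain 106 stood out over a shorter stretch at the same place. Of the 9 good probes starting within 1 kb of the ends, 7 were above 0 after the subtraction. The probes starting at 717 and 732, which overlap, had 0.60 and 0.48, and those at 85274, 85538 and 85719 had 0.63, 0.59 and 0.79. The probes at 85274, 85538 and 85719 were dim. Their median Cy5 levels over the arrays other than strain 84 were 0.151-fold, 0.072-fold and 0.312-fold the nuclear median. The median of the good probes on the WT14 array was 2.37-fold. Those at 49, 85032 and 85604 lay between -0.02 and 0.04. Over the 9 probes strain 106 had a median of 0.48 and strain 117 of 0.20. The remaining strains without 84 had medians of -0.10 to 0.02 there, against -0.12 for WT14. These stretches, and single probes named for one strain, were chosen after their values were seen, so the differences are given as descriptions.

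After the same subtraction strain 101 had 11 probes above 0.3 and 2 below -0.3, and most of the raised ones were spread between 34888 and 57059, with the highest, 0.67, at 85538. Strain 83 had 8 above and 9 below these limits, the lowest -0.61 at 11909 and -0.60 at 85274. The same 2 positions gave -0.41 and -0.36 in strain 1, and 11909 gave -0.32 on the WT14 array. The probe at 11909 was dim as well, with a median Cy5 level of 0.079-fold over the arrays other than strain 84. WT14 had 3 probes past 0.3 in size, and strains 73 and 119 had none.

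**Figure D5:**
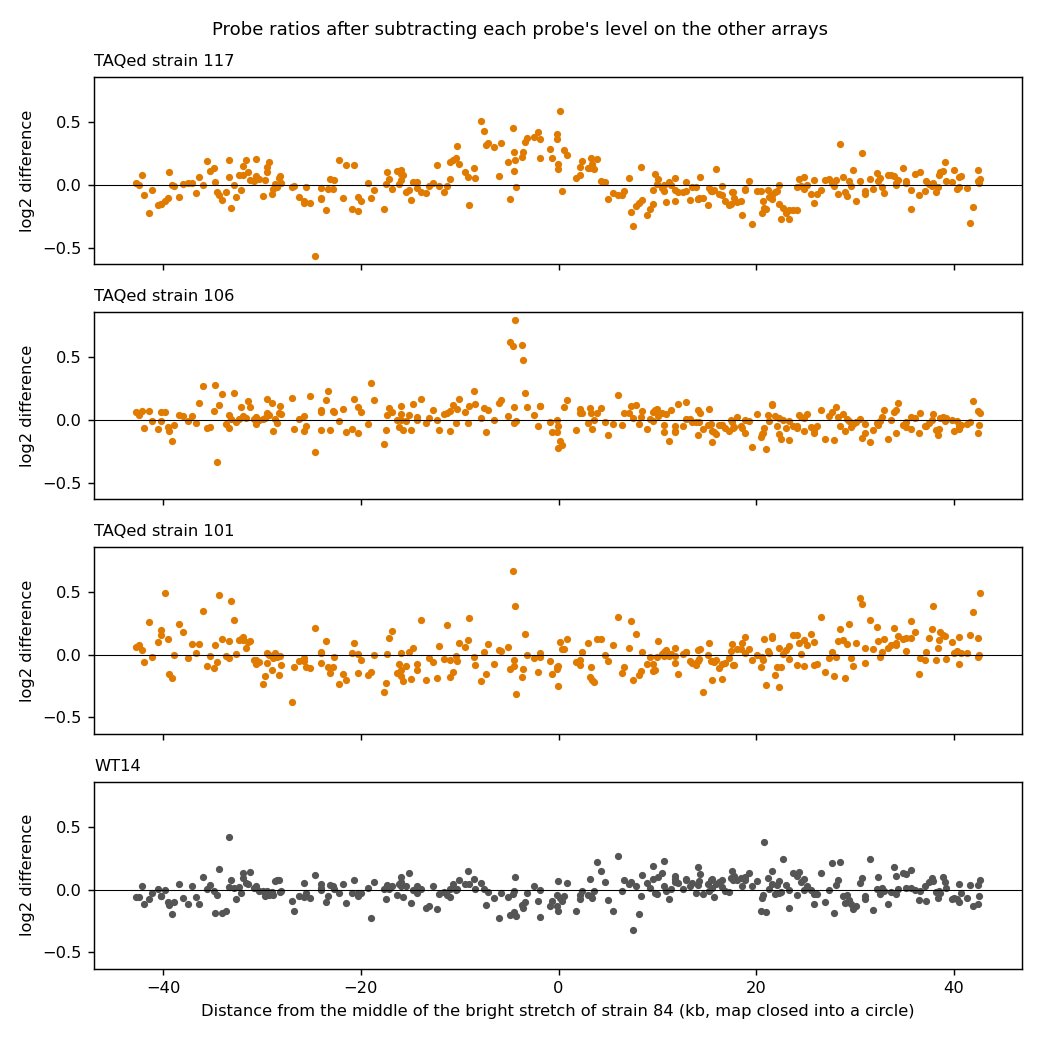
Log2 difference of each good probe from its median over the other arrays, after each array was set to a median of 0, against its distance in kb from the middle of the bright stretch of strain 84, for TAQed strains 117, 106 and 101 and, at the bottom, WT14. Strain 117 rises over a broad stretch to about its highest value of 0.60, strain 106 has 5 raised probes at 0.48 to 0.79, and WT14 stays within -0.32 and 0.42.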

How the data were processed

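The authors hybridized labeled genomic DNA to 2-color tiling arrays and deposited the scanner tables of Agilent Feature Extraction 11.0.1.1 (build sacCer2). The deposited processed signals are intensities in Cy5 and Cy3 after background subtraction and dye normalization, and the deposited value table holds log10 ratios. Log2 ratios were computed here from the authors' processed intensities. Control spots and outlier-flagged spots were left out, spots of a probe averaged, and arrays centered on their median. Medians by array were compared with two-sided exact permutation tests. limma 3.58.1 (R 4.3.3) fitted all probes, with Benjamini-Hochberg adjustment at 0.05. Segments (penalty 10, at least 10 probes) and limma calls were tested on simulated data. The simulated ratios for segments held independent noise without the profile shared by the arrays. They therefore do not vouch for segments of the ratios without subtraction. Normexp with offset 50 used median signals. Named probes were the 5 highest and 5 lowest by median over the TAQed strains and the 5 brightest in Cy5 among those well above background in strain 84. Members and lists were chosen with earlier results of these data known. Arrays have no depth, and their number limits precision. Genes and GC content of probes were not analysed here.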

Additional observations from a re-analysis of the deposited data

How the results depend on the processing

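Strain 84 stayed lowest and strain 101 next lowest in each setting, while the order of the other strains changed in part. Under the 8 other processings of the array medians, 93 of 111 values for single arrays moved by less than 0.14, the SD of the Cy3 level over 12 arrays, 18 moved further, and none past 0.58 changed sign. Strain 84 had -2.84 with normexp background correction, which raises dim signals, -4.28 over probes well above background in both dyes and -6.79 with signals raised to the dimmest one well above background. The median over the TAQed strains was 0.40, and 0.26 with loess within arrays, where strains 73 and 76 had 0.55 each and 1 strain, against 3, stayed above 0.58. Loess gave -0.07 for WT14, -0.05 for strain 97 and -0.01 for strain 83. With normexp strain 1 had 0.71, strain 81 had 0.14 and strain 101 had -0.46, against 0.16 for WT14. There strain 76, with 0.87, passed strain 113, with 0.85, as the highest. In 10 of the 12 strains other than 84 the median was above WT14 in these settings, except with normexp, with 9.

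The difference of TAQed strains from WT14 of -0.46 reversed to 0.22 without strain 84 and to 0.42 on slide 1, and was -0.04 with normexp. Over the TAQed arrays 2017 mitochondrial probe values lay past 0.58 (651 past 1 and 3376 past 0.3). Of those past 0.58, 69.1% were higher (1394 higher and 623 lower). Without strain 84 there were 1389 higher and 282 lower, which is 83.1% higher. With all strains the share was 52.6% with loess, 83.6% over probes well above background and 59.6% with WT14 subtracted. The split by direction over all probes is not given here, so these shares are not read as particular to mitochondrial probes. Segments of the ratios without subtraction on the TAQed arrays, strain 84 included, numbered 23. There were 45 at a penalty of 5 and 15 at a penalty of 20. The median range over bins, in the TAQed strains other than 84, was 0.42, with 0.64 in bins of 2 kb. Subtracting the median of the other arrays before segmenting was chosen after seeing the data. It also gave 23 segments, but spread differently over the strains. limma called 0 probes in each setting, with 492 at an unadjusted p under 0.05 without strain 84, 352 with slide as a block and 408 with probes well above background on all arrays. The bright stretch of strain 84 kept ratios above 1 at 4239, 4243 and 4495 in each setting.

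No paired analysis was possible because each strain had 1 array. The deposited value table gave no mitochondrial probe, and the sequence alternative and the gene comparisons were not run.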
